A study of Mus musculus with 8 samples.

Results

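Neighbouring genes whose facing boundaries lie less than 1 kb apart were examined for RNA polymerase II (Pol II) signal in mouse liver. The members are 1967 pairs of adjacent, non-overlapping protein-coding genes on the autosomes in the RefSeq annotation of GRCm38.p6, out of 41330 boundaries of 20665 such genes. They hold 3558 genes, 17.2% of the total, and 376 of these genes belong to 2 pairs. A region was the gap between the genes with 1 kb on either side, and no measured value was used to choose it. The comparison regions were 13925 single boundaries, each more than 10 kb from any other gene, with 1 kb on either side.

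When neighbouring genes are transcribed away from each other, their promoters face each other across a short gap, and such a gap is called a bidirectional or head-to-head promoter. In mammals these promoters are often rich in CpG dinucleotides and serve many genes of basic cell functions, such as DNA repair, the mitochondrion and RNA processing. Where neighbours are transcribed towards each other the gap joins their 3′ ends, and Pol II commonly continues past the end of a gene before it is released. ChIA-PET pulls down crosslinked chromatin with an antibody, here 8WG16 against Pol II, joins nearby DNA ends through a linker and sequences a tag from each end. The resulting paired-end tag (PET) has 2 ends, and the number of PET ends at a place reads how often it was recovered with Pol II.

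The samples were livers of wild-type C57BL/6 mice aged 3 to 6 months, kept in 12 h light and 12 h dark with food at will, with no genetic or drug treatment. They were taken at ZT06 or ZT18 (hours after lights on), with chromatin of 3 to 7 livers pooled for each preparation. The 8 libraries, 4 per time, came from 3 experiments: experiments 1 and 3 were crosslinked with 1.5 mM EGS, a protein crosslinker, and 1% formaldehyde, and experiment 2 with 1% formaldehyde alone. The processed table pools day and night libraries of an experiment, so the values below are 1 per experiment, and day against night was not analysed here.

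Experiments 1, 2 and 3 held 474478, 1438866 and 840210 PETs, and the autosomal mean was 0.768, 2.34 and 1.36 PET ends per 2 kb. Densities are given relative to that mean, so 1 is the average of the autosomes. Hepatocyte markers were above 1 in 10 of 10 genes in every experiment, with medians of 47.4, 7.04 and 9.77. Markers of other tissues had medians of 0.814, 1.29 and 1.42 over 9 genes, and markers of Kupffer, endothelial and stellate cells had medians of 0.828, 1.10 and 1.40 over 7 genes. Bulk liver cannot tell fewer cells of a type from less Pol II per cell.

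Strand was known for both genes of 1404 pairs. Of these, 552 (39.3%) were divergent, 435 (31.0%) tandem, meaning that both genes run the same way, and 417 (29.7%) convergent, and a strand was missing for 563 pairs. The gap had a median of 250 bp (quartiles 90 and 571 bp). Divergent gaps were the shortest, with a median of 100 bp, against 449 bp in tandem and 381 bp in convergent pairs.

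The gap sequences below show what the shared promoters of divergent pairs look like and are given from RefSeq (GRCm38.p6, plus strand, 5′ to 3′). Capitals mark matches to the GC box, which reads GGGCGG, and to the CCAAT box. A match on the minus strand appears here as its reverse complement. The examples from Shld2-Glud1 to Swt1-Trmt1l carried dense PET ends in every experiment. Per3-Gm38529 holds a clock gene, Mrps12-Sars2 is a long-known head-to-head pair, and the last 2 were among the divergent pairs with the fewest PET ends. These examples were picked after the densities were known. For Shld2-Glud1 the gap is chr14:34310652-34310726, for Mrps18b-Ppp1r10 chr17:35916441-35916511, for Rpl36al-Mgat2 chr12:69184068-69184157, for Swt1-Trmt1l chr1:151428498-151428541, for Per3-Gm38529 chr4:151044708-151044852, for Mrps12-Sars2 chr7:28741822-28741956, for Ctnnd1-Btbd18 chr2:84658978-84659071 and for Il9r-Snrnp25 chr11:32205284-32205414.
Shld2-Glud1: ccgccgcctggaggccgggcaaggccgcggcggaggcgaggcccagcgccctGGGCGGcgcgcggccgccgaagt
Mrps18b-Ppp1r10: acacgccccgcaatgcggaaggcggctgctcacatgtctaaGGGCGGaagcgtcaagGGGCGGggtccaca
Rpl36al-Mgat2: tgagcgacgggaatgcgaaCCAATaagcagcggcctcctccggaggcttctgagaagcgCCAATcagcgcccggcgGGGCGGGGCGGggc
Swt1-Trmt1l: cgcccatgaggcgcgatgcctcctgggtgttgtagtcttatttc
Per3-Gm38529: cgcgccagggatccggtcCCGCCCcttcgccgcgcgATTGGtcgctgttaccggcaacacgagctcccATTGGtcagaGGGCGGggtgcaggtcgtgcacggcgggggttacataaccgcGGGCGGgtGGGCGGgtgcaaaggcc
Mrps12-Sars2: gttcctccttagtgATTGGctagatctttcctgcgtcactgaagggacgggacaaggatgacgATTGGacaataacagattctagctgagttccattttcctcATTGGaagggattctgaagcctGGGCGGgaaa
Ctnnd1-Btbd18: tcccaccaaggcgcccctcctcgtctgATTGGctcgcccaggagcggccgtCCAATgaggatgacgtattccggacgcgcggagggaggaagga
Il9r-Snrnp25: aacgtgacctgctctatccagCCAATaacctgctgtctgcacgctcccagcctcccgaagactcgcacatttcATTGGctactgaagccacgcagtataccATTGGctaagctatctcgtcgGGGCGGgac

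The dense Shld2-Glud1 gap was 85.3% G and C, and Mrps12-Sars2 was 48.1%. A motif did not divide the dense from the sparse examples: Swt1-Trmt1l had 74 PET ends over the experiments and held neither box, while Il9r-Snrnp25 had 2 ends and held a GC box and 3 CCAAT boxes.

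PET ends were denser at the pairs than at single boundaries in each experiment. The summed relative density of the 1967 members was 7.28, 2.19 and 4.09 in experiments 1 to 3, against 3.18, 1.42 and 2.11 at single boundaries. The ratio was 2.29 (95% interval 2.24 to 2.34), 1.54 (1.51 to 1.57) and 1.94 (1.90 to 1.98), with a mean of 1.92 ± 0.375 (SD, n = 3 experiments). The intervals cover counting error only, and ends of the same PET are not independent. The two-sided exact sign-flip test over the 3 experiments gave p = 0.25, the smallest it can give, so the ratio was above 1 in 3 of 3 experiments without a test that could pass 0.05. Relative to windows 100 kb away on either side of each region, the mean ratio was 1.39. Members covered 0.192% of the autosomes and held 1.40%, 0.421% and 0.784% of the autosomal ends.

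The typical pair was also denser, not only the sum. The median relative density was 3.99, 1.65 and 3.09 in members and 1.30, 0.857 and 1.47 at single boundaries. No PET end was found in 16.4%, 3.71% and 4.42% of members, against 47.0%, 15.9% and 26.8% of single boundaries, and 23 members had none in any experiment. Regions of pairs are 2 to 3 kb long, against 2 kb at a single boundary, so these shares are not over equal lengths. The densest 10% of members held 39.4%, 30.2% and 29.7% of the members' ends.

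Divergent pairs carried the most signal. Their relative density was 11.6, 3.28 and 6.06 in experiments 1, 2 and 3, and that of the 5652 single gene starts was 5.08, 1.79 and 3.06. The ratio of 2.29, 1.83 and 1.98 averaged 2.03 ± 0.232 (SD, n = 3 experiments; exact sign-flip p = 0.25). Among starts whose promoter is rich in CpG this difference was much smaller, as given further below with the promoter sequences. There the mean ratio of summed densities was 1.05.

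Tandem and convergent pairs were less dense. Tandem pairs, in which the end of a gene meets the start of the next, had 7.18, 2.02 and 3.96, or 1.85 ± 0.419 times single boundaries of any kind (SD, n = 3 experiments). Convergent pairs had 3.26, 1.27 and 2.32, against 1.18, 1.03 and 1.11 at the 5408 single gene ends. Their ratio to single ends was 2.77, 1.24 and 2.09 (mean 2.03 ± 0.768, n = 3 experiments). The 2 experiments with EGS had higher ratios than experiment 2 in each class. For all members the log2 ratio was 0.45 higher with EGS, and the exact permutation test of 2 experiments against 1 cannot give less than p = 0.33. With each class taken relative to windows 100 kb away on either side, that difference was 0.03.

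**Figure D1:**
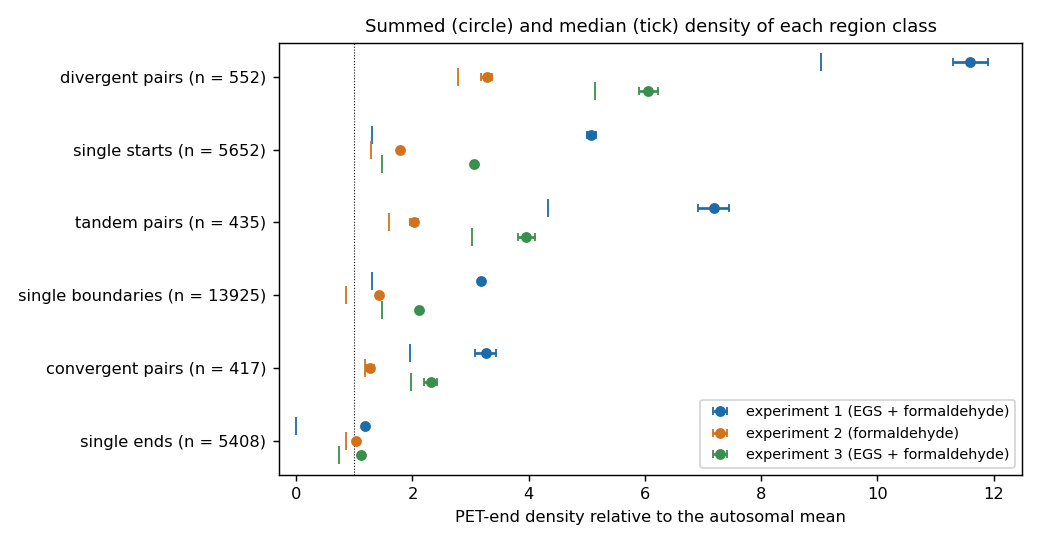
PET-end density relative to the autosomal mean (x axis) for each class of region (y axis) in each experiment, with circles for the summed density, bars for its exact Poisson 95% interval and ticks for the median region. Divergent pairs lie furthest right in every experiment, at 11.6, 3.28 and 6.06.

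The PET ends of divergent pairs were densest in and beside the gap. The gap itself reached 20.4 (18.9 to 21.9), 5.74 (5.30 to 6.21) and 12.2 (11.3 to 13.1). The 1 kb inside the left gene had 10.7, 3.17 and 5.55, and the 1 kb inside the right gene 11.1, 2.97 and 5.53, so the sides were alike in sum. In 100 bp bins around the starts, the bin just outside the gene had 26.4, 6.97 and 15.6 and the bin just inside 26.4, 6.61 and 13.7. The intervals of these bins overlapped in experiments 1 and 2 but not in experiment 3. Both starts of each pair were counted, so an end in or near a short gap can count at both. These intervals can therefore be too narrow, and the difference between the bins was not tested. In gaps shorter than 100 bp the bin outside reaches into the partner gene. The highest bin at single starts was the bin just inside the gene, at 13.2, 3.38 and 6.97.

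In tandem pairs the signal sat at the start of the downstream gene. The 1 kb inside that start had 9.86, 2.48 and 5.08, the gap 9.38, 2.45 and 5.25, and the last 1 kb of the upstream gene 3.49, 1.38 and 2.25. Single gene ends had 1.08, 1.05 and 1.13 in their last 1 kb. Convergent pairs showed no peak of this kind: the gap had 3.61, 1.30 and 2.39 and the flanks 3.21, 1.31 and 2.35 on the left and 3.17, 1.21 and 2.25 on the right.

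**Figure D2:**
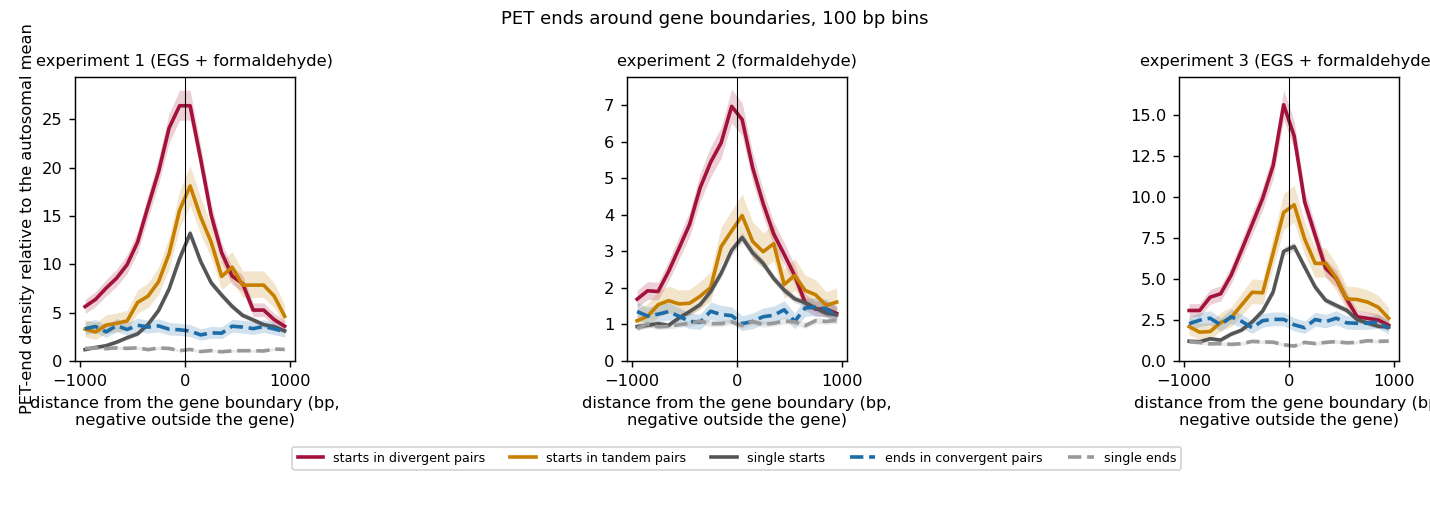
PET-end density relative to the autosomal mean (y axis) in 100 bp bins by distance from the gene boundary (x axis, negative outside the gene), 1 panel per experiment, with shading for the exact Poisson 95% interval. Starts in divergent pairs are highest in the bins next to the boundary, with 26.4, 6.97 and 15.6 just outside the gene, and ends in convergent pairs show no such peak.

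Convergent pairs were also divided by the length of their genes. Where both genes were over 10 kb long (164 pairs), the density was 2.11 (1.88 to 2.35), 1.18 (1.08 to 1.28) and 2.23 (2.05 to 2.41). Single ends of genes over 10 kb had 1.17, 1.08 and 1.22. The 154 convergent pairs with a gene of at most 5 kb had 4.75 (4.39 to 5.12), 1.36 (1.26 to 1.48) and 2.63 (2.44 to 2.84), and these intervals overlapped those of the long genes in experiment 2. Single ends of genes of at most 5 kb had 1.08, 0.846 and 0.778. This division by length was chosen after the densities had been seen.

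The ends above the autosomal mean were more than those of a pair of single boundaries added together. A divergent pair had 8.85, 5.77 and 7.48 ends per region above the autosomal mean, against 6.27, 3.69 and 5.60 for the sum of 2 single starts, which is 1.41, 1.57 and 1.34 times as many. The same figure for tandem pairs, against a start plus an end, was 1.79, 1.55 and 1.68. For convergent pairs it was 7.69, 6.37 and 7.18, where the sum for 2 single ends was only 0.271, 0.118 and 0.299 ends. The convergent figure thus rests on a small divisor. These sums were not matched for promoter CpG content or for the density of the surroundings. They are above the autosomal mean and not above windows 100 kb away, so they include any regional difference in density.

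Shorter gaps went with denser regions when all orientations were pooled, but not in the same way within each orientation. Pairs with gaps under 250 bp (980 pairs) had 8.91, 2.56 and 4.89, those from 250 to under 500 bp (406 pairs) 6.88, 2.05 and 3.89, and those of 500 bp or more (581 pairs) 5.42, 1.80 and 3.18. Much of the shortest class was divergent (429 of 980 pairs). Within divergent pairs the first 2 classes were close, at 12.0 and 11.6, 3.32 and 3.39, and 6.11 and 6.34 in experiments 1, 2 and 3, and the 41 pairs with the widest gaps had 8.38, 2.74 and 5.22. Over the 3 classes, tandem pairs had 7.50, 7.07 and 7.07 in experiment 1 and 2.14, 1.93 and 2.01 in experiment 2. In experiment 3 tandem pairs had 4.30, 4.14 and 3.69. Convergent pairs had 3.39, 3.96 and 2.75 in experiment 1 and 1.21, 1.25 and 1.33 in experiment 2. In experiment 3 convergent pairs had 2.52, 2.35 and 2.13. Just inside the limit of 1 kb, the 87 pairs of any orientation with gaps of 900 bp or more had 4.18, 1.47 and 2.62. Just outside it, 87 pairs with gaps from 1000 to under 1100 bp had 4.45, 1.72 and 2.98.

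The nearer the next gene of any kind, the denser the first or last 1 kb inside a gene. At gene starts the density was 10.6, 2.94 and 5.46 with the next gene under 1 kb away, and 6.94, 2.20 and 3.96 with it over 10 kb away. At gene ends it was 2.86, 1.24 and 2.10 against 1.13, 1.09 and 1.19. The 3 classes in between lay in order in each experiment except for gene ends in experiment 2, where the classes of 5 to 10 kb and over 10 kb were equal at 1.09.

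**Figure D3:**
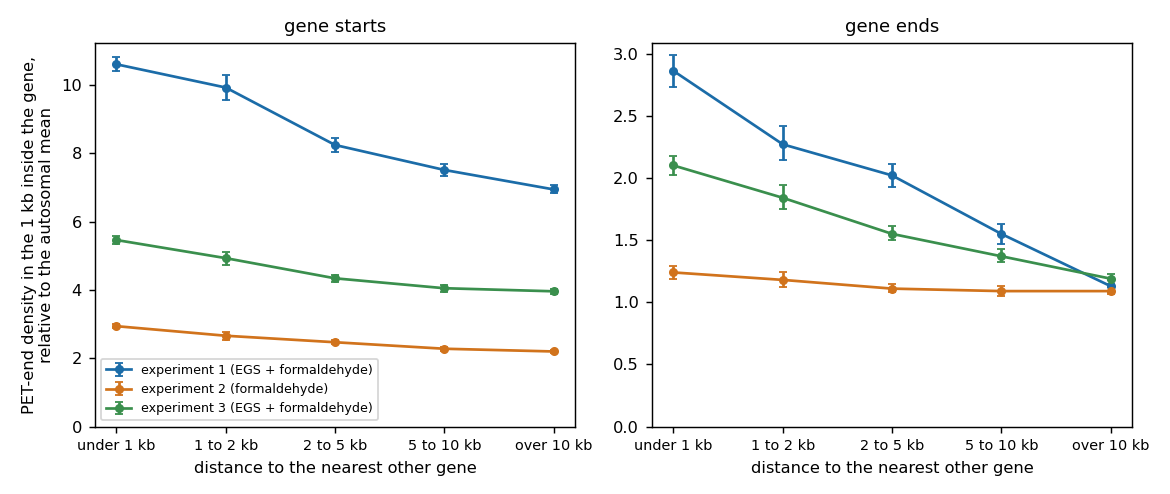
PET-end density in the 1 kb inside a gene, relative to the autosomal mean (y axis), by distance from that boundary to the nearest other gene (x axis), for starts and ends, with exact Poisson 95% intervals. At starts the density goes from 6.94 to 10.6 in experiment 1 as the next gene comes under 1 kb.

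Divergent pairs differed from single starts in promoter sequence. The windows run from 250 bases before to 50 after the annotated start and were given for 448 divergent pairs, 3439 single starts and 9841 autosomal protein-coding promoters in all. Divergent gaps had a median of 100 bp, so many windows of divergent pairs also hold the start of the partner gene. Windows of single starts do not. The median G and C content was 62.2% in divergent pairs, 50.3% at single starts and 54.3% in all promoters. The ratio of observed to expected CpG, which is low where methylated CpG has been lost over evolution, had medians of 0.861, 0.325 and 0.491. It was 0.75 or more in 71.2% of divergent pairs and in 23.3% of single starts. Windows at the downstream starts of 224 tandem pairs lay between these classes, with medians of 57.7% for G and C and 0.624 for CpG.

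In the class richest in CpG, the summed density of divergent pairs was close to that of single starts. With a ratio of 0.75 or more, 319 divergent pairs had 12.5, 3.49 and 6.39, and 801 single starts had 11.7, 3.21 and 6.38. The ratio between them was 1.07 (1.03 to 1.11), 1.09 (1.04 to 1.14) and 1.00 (0.959 to 1.05), with a mean of 1.05 ± 0.0455 (SD, n = 3 experiments; exact sign-flip p = 0.25). Without the densest 1% of regions of each class the mean was 1.19, and with a limit of 0.6 it was 1.13. Between 0.4 and 0.75, divergent pairs were denser by 1.79, 1.42 and 1.58 times. Under 0.4 the factor was 1.44, 1.36 and 2.15, over 23 divergent pairs only. In the class of 0.75 or more, the median region had 9.87, 2.93 and 5.54 in divergent pairs and 7.81, 2.57 and 5.14 at single starts. The CpG classes were chosen after the densities had been seen.

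**Figure D4:**
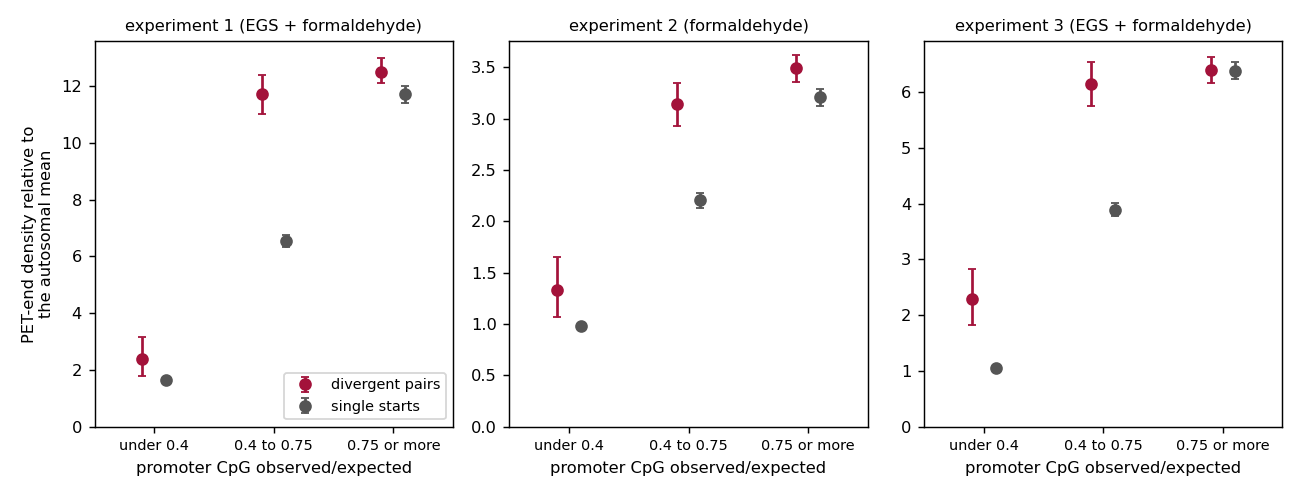
PET-end density relative to the autosomal mean (y axis) of divergent pairs and single starts by the observed/expected CpG ratio of the promoter window (x axis), 1 panel per experiment, with exact Poisson 95% intervals. In the richest class the points, which are summed densities, lie close together, at 12.5 and 11.7 in experiment 1.

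Motifs of factors that bind many CpG-rich promoters were more frequent in the promoter windows of divergent pairs. The letters of 8 motifs were searched on both strands, and a match describes letters, not binding. The GC box GGGCGG, known as the site of Sp1, was in 68.3% of divergent pairs, 35.4% of single starts and 41.7% of all promoters. The ETS core CCGGAAG was in 28.1%, 7.12% and 10.7%, and ATGGCGG, the core of YY1 sites, in 15.8%, 3.34% and 5.14%. For the palindrome bound by NRF1 the shares were 3.79%, 0.872% and 1.29%. The downstream starts of 224 tandem pairs lay between divergent pairs and single starts for the GC box (55.4%), the ETS core (17.9%) and the YY1 core (8.48%). Their share for NRF1 was 0.893%. These shares are over whole windows, which can hold both starts of a divergent pair, and not over the gap alone. Of 340 divergent gaps that a window covered, 132 held the GC box, 34 the ETS core, 7 the NRF1 palindrome and 0 the YY1 core. Gaps are shorter than windows, so these counts cannot be set beside the shares.

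The E-box CACGTG, bound by the clock factors BMAL1 and CLOCK among others, was in 11.6% of divergent pairs, 6.72% of single starts and 7.52% of all promoters. The CRE TGACGTCA was in 4.02%, 1.86% and 2.33%. At the downstream starts of 224 tandem pairs the shares were 11.2% and 4.02%, close to those of divergent pairs. CCAAT differed little, at 42.6%, 40.7% and 40.5%. The TATA box TATAAA was rarer in divergent pairs, at 6.25% against 21.9% and 17.4%. None of these shares was matched for CpG content, and the letters of each motif except CCAAT and TATAAA contain CpG.

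Densities were also compared between regions with and without a motif. Divergent pairs with a GC box were 1.51 (1.41 to 1.62), 1.35 (1.26 to 1.46) and 1.29 (1.20 to 1.38) times as dense as those without. At single starts the factor was 3.73, 2.42 and 3.44. Those with a TATA box had 0.634, 0.627 and 0.644 times the density of those without, over 28 pairs, against 0.510, 0.617 and 0.441 at single starts. For CCAAT the factor was 0.852, 0.885 and 0.958 in divergent pairs and 1.12, 1.03 and 1.05 at single starts. For the ETS core the factor in divergent pairs was 1.02, 0.992 and 1.01, with intervals from 0.923 to 1.09, against 1.96, 1.51 and 1.81 at single starts. For the E-box it was 0.883, 0.996 and 1.03 over 52 pairs. The 8 motifs were compared in both classes and all 3 experiments, without an adjustment over these comparisons, and whether a factor differed between the classes was not tested.

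Single regions were tested against the autosomal mean with a one-sided exact Poisson test, with Benjamini-Hochberg adjustment over all 15892 regions (members and single boundaries) and a threshold of 0.05. In experiment 1, 936 members (47.6%) passed, against 20% of all regions tested. In experiment 2 it was 456 members (23.2%) against 9.87%, and in experiment 3 it was 851 (43.3%) against 17.3%. In all 3 experiments 365 members (18.6%) passed, against 7.51% of all regions. Without experiment 2 the count was 671. Counting only the first read of each PET it was 178, and against the density of single boundaries in place of the autosomal mean it was 193. The test treats ends as independent, but 2635, 1446 and 1429 PETs had both ends in 1 member region in experiments 1 to 3. Its p-values can therefore be too small. First reads use fewer ends and also count each PET once, and these effects were not separated.

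The 365 pairs were mostly divergent where the strand was known. They held 200 divergent pairs (36.2% of 552), 68 tandem pairs (15.6% of 435) and 5 convergent pairs (1.20% of 417). Of single starts 657 (11.6%) passed in all 3 experiments and of single ends 5 (0.0925%). A 2 kb region needed 4, 8 and 6 ends in the 3 experiments to pass, so a pair with fewer was not detectable at this depth.

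The pair with the highest lowest density over the experiments was H2bc6-H1f4, a histone H2B gene and a linker histone gene on chromosome 13 (gap 23621125 to 23621776). It had 42, 48 and 27 PET ends, which are 41.3 (29.7 to 55.8), 15.5 (11.4 to 20.6) and 14.9 (9.85 to 21.7) times the mean. The H1f4 side held 79 ends over the experiments, the gap 28 and the H2bc6 side 10. Histone genes have close copies, so the mapping of these ends is less certain. The adjusted p of the exact Poisson test was at most 2.1e-20. This lead rests on the width of the flank: with flanks of 500 bp the lowest density of H2bc6-H1f4 was 4.44, the least among the 10, and that of Srsf7-Gemin6 was 23.4. With only PETs between chromosomes it was 7.29.

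Srsf7-Gemin6 and Hnrnpa2b1-Cbx3, both divergent, were also among the 10 densest by this measure. Srsf7, a splicing factor of the SR family, faces Gemin6, a part of the SMN complex that assembles spliceosomal particles. This pair had 17, 35 and 30 ends (20.8, 14.0 and 20.6 times the mean), of which 62 lay on the Srsf7 side and 7 on the Gemin6 side. Hnrnpa2b1, an RNA-binding protein gene, and Cbx3, which encodes heterochromatin protein HP1 gamma, had 35, 33 and 26 ends (43.3, 13.4 and 18.1 times the mean). Again most ends, 79, lay on a single side, that of Hnrnpa2b1, and 13 on the Cbx3 side.

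A further 3 of the 10 pairs hold a gene of the mitochondrion. Shld2-Glud1 joins a DNA repair gene to glutamate dehydrogenase, and had 40, 34 and 25 ends (50.2, 14.0 and 17.7 times the mean), 59 of them on the Glud1 side and 37 on the Shld2 side. Mrps18b-Ppp1r10 joins a gene of the mitochondrial ribosome to a regulatory subunit of protein phosphatase 1, and had 30, 30 and 23 ends (37.7, 12.4 and 16.3). Dcaf6-Mpc2, which holds a subunit of the mitochondrial pyruvate carrier, had 41, 34 and 21 ends (45.4, 12.4 and 13.1). Like the members as a whole, these 3 pairs were higher in experiment 1 than in experiments 2 and 3.

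Foxa3-Sympk and Lcat-Slc12a4 each hold a gene known for its expression in liver. Foxa3, a transcription factor of hepatocytes, faces Sympk, a scaffold of mRNA 3′-end processing, across 837 bp, and the pair had 52, 45 and 29 ends (47.7, 13.6 and 15.0 times the mean). The Foxa3 side held 68 ends, the gap 42 and the Sympk side 16. Lcat, the plasma enzyme that esterifies cholesterol, is tandem with the ion transporter gene Slc12a4. This pair had 21, 33 and 21 ends (25, 12.9 and 14.1), with 53 on the Lcat side, 17 in the gap and 5 on the Slc12a4 side. The remaining pairs among the 10 were Lrrc28-Ttc23 (37, 31 and 27 ends) and Swt1-Trmt1l (27, 29 and 18 ends).

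**Figure D5:**
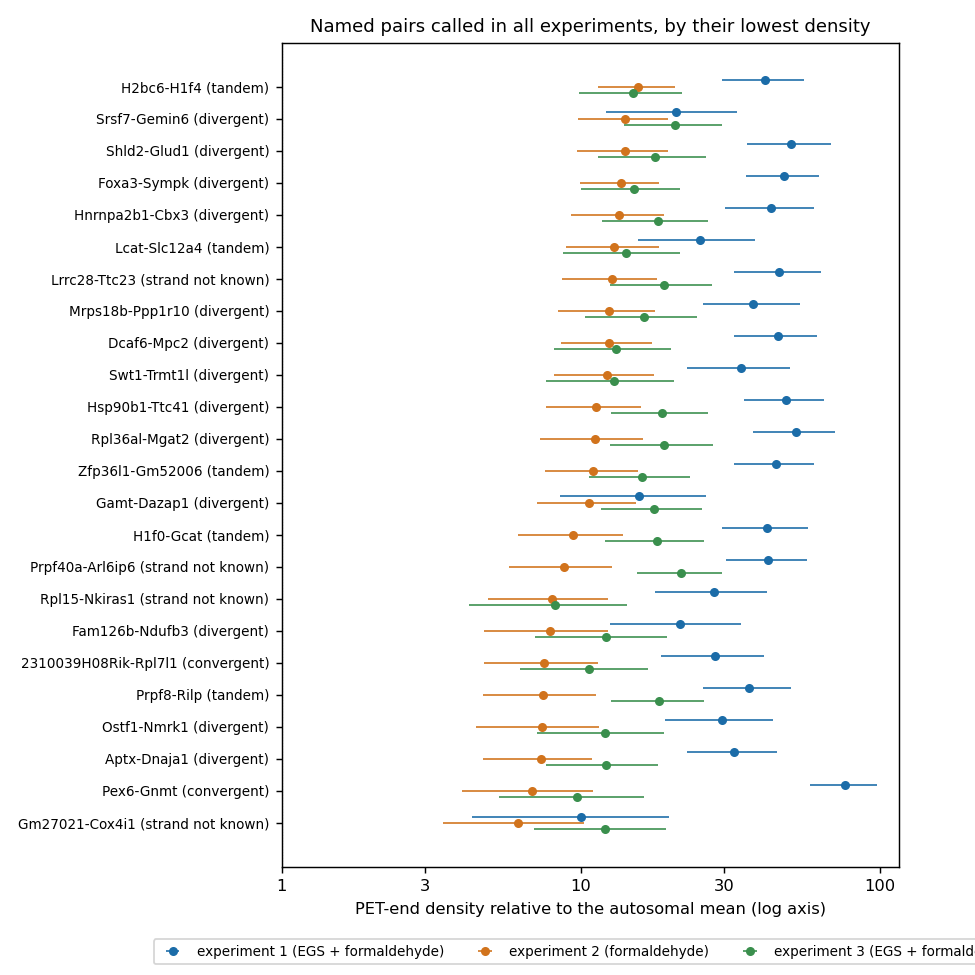
PET-end density relative to the autosomal mean (log x axis) of 24 named pairs that passed the test in all 3 experiments, ordered by their lowest density (y axis), with exact Poisson 95% intervals. H2bc6-H1f4 leads with a lowest density of 14.9, which is 4.44 with flanks of 500 bp, and Pex6-Gnmt has the widest spread, from 6.87 to 76.2.

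Among convergent pairs the highest in experiment 1 was Pex6-Gnmt, a peroxisome gene and glycine N-methyltransferase, an abundant enzyme of hepatocytes. It had 62 ends in experiment 1, or 76.2 (58.4 to 97.7) times the mean, but 17 and 14 ends in experiments 2 and 3 (6.87 and 9.69). The ends lay on both sides, 49 on the Pex6 side and 40 on the Gnmt side. The neighbouring 2310039H08Rik-Rpl7l1 pair had 27, 22 and 18 ends (28.1, 7.54 and 10.6 times the mean).

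Only 7 pairs held a gene of a list of liver genes, and 1 of them, Pex6-Gnmt, passed in all 3 experiments. Cfb-C2, of the complement genes, had 15, 14 and 4 ends (18.7, 5.75 and 2.81 times the mean), and its adjusted p in experiment 3 was 0.199 in the exact Poisson test. Madd-Nr1h3, with the oxysterol receptor LXR alpha, had 20, 5 and 8 ends. Serpinc1-Zbtb37, with antithrombin, had 15, 3 and 5 ends, and Nelfe-Cfb 6, 3 and 5. The median of the 7 pairs was 16.4, 1.28 and 3.09, against 3.99, 1.65 and 3.09 over all members. The list thus lay above all members in experiment 1, below them in experiment 2 and level in experiment 3.

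Clock genes were in 4 pairs. Car11-Dbp, with the clock output factor Dbp as its downstream gene, had 26, 10 and 7 ends (28.1, 3.55 and 4.26 times the mean) and passed in all 3 experiments. The Dbp side held 26 of these ends, the gap 7 and the Car11 side 10. Per3-Gm38529 had 9, 4 and 8 ends. The convergent pair Tmem165-Clock, which holds the 3′ end of Clock, had 0, 5 and 2 ends. These values pool libraries of ZT06 and ZT18.

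Of 9 well-known head-to-head pairs, 4 met the rule. Atm-Npat, a DNA damage kinase gene and an activator of histone genes, had 14, 8 and 7 ends (17.7, 3.33 and 4.99 times the mean) and passed in every experiment. Psmb9-Tap1, of antigen processing, had 17, 5 and 10 ends (19.9, 1.92 and 6.60). Mcm4-Prkdc, with a replication helicase subunit and a DNA repair kinase, had 6, 2 and 9 ends, and Mrps12-Sars2 had 5, 2 and 3. These 3 did not pass in experiment 2, where a 2 kb region needs 8 ends.

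The share of pairs that passed in all 3 experiments varied between gene families, beside 18.6% of all members. It was 43.8% for RNA polymerase subunits (7 of 16 pairs), 42.6% for the respiratory chain (20 of 47), 42.4% for cytosolic ribosomal proteins (14 of 33) and 40% for spliceosome genes (6 of 15). Mitochondrial ribosomal proteins had 29.4% (10 of 34) and the proteasome 25% (5 of 20). These shares were not matched for orientation, and 36.2% of all divergent pairs passed. Divergent pairs were 9 of 16 for RNA polymerase, 23 of 47 for the respiratory chain and 16 of 34 for the mitochondrial ribosome. They were 10 of 33 for cytosolic ribosomal proteins, 5 of 15 for the spliceosome and 7 of 20 for the proteasome, beside 552 of 1967 members. By the lowest density over the experiments, Rpl36al-Mgat2 led the ribosomal pairs with 42, 27 and 27 ends, and Fam126b-Ndufb3, which holds a subunit of complex I, led the respiratory chain with 17, 19 and 17.

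Other families were closer to the members as a whole or below them. Histone pairs had 23.1% (6 of 26), heat shock and DnaJ genes 20% (5 of 25), Zfp zinc finger genes 15.8% (6 of 38) and Mediator subunits 11.1% (1 of 9). Hsp90b1-Ttc41, with the chaperone of the endoplasmic reticulum, had 44, 31 and 30 ends. Of 1473 olfactory, vomeronasal and trace amine receptor genes only 7 were in a pair, and 0 of their 5 pairs passed in all 3 experiments. In experiment 3 alone 1 of them, Ubd-Olfr94, passed. The median over these 5 pairs was 0.939, 0.618 and 1.01.

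Members kept much of their order between experiments. Spearman's rho over the 1967 members was 0.599 for experiments 1 and 2, 0.686 for experiments 1 and 3, and 0.555 for experiments 2 and 3. These values are across regions that share gene annotation and sequence composition, and regions are not replicates. Within divergent pairs, left and right flanks had a rho of 0.370, 0.329 and 0.265. In tandem pairs it was 0.175, 0.0706 and 0.0581 and in convergent pairs 0.191, 0.0351 and 0.183. Counts per region are low, with a median of 7 to 8 ends in divergent regions, and counting error lowers these values.

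The side of a divergent pair that held more ends was often the same in the other experiments. Experiment 1 gave a heavier side for 288 divergent pairs with at least 6 ends in the flanks. That side was also the heavier in experiment 2 in 170 pairs, the lighter in 75 and equal in 43. In experiment 3 it was heavier in 189, lighter in 69 and equal in 30. The chosen side held 72.0% of flank ends in experiment 1, which chose it, and 59.7% and 61.9% in experiments 2 and 3, which did not. This was not particular to divergent pairs. Chosen in the same way, the side held 71.4% and 73.2% in experiments 2 and 3 over 123 tandem pairs. Over 43 convergent pairs it held 60.1% and 62.0%.

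PETs with both ends close together made up more of the signal at members than at single boundaries or over all PETs. PETs with ends at most 8 kb apart gave 45.0% (44.1 to 45.9), 26.4% (25.6 to 27.2) and 25.5% (24.7 to 26.3) of the ends in members, by exact binomial interval. At single boundaries they gave 40.6%, 17.6% and 21.7%, and of all PETs 22.5%, 6.23% and 14.8%. Single starts were closer to the members, at 43.5%, 23.9% and 23.8%. Divergent pairs had 47.3%, 33.5% and 27.0%. PETs between chromosomes gave 51.5%, 69.7% and 69.1% of members' ends, less than the 55.7%, 77.8% and 72.8% at single boundaries. They were 73.1%, 88.7% and 80.2% of all PETs.

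Contacts of 8 to 100 kb from the members were few. There were 36, 8 and 101 such PETs with an end in a member. Per PET end in the regions, this was 1.01 (0.668 to 1.5), 1.35 (0.524 to 3.14) and 1.65 (1.28 to 2.11) times the value at single boundaries, so the interval excluded 1 in experiment 3 alone. Divergent pairs against single starts gave 1.03 (0.544 to 1.84), 0.792 (0.0868 to 3.50) and 1.35 (0.913 to 1.96), with intervals that include 1. For distances from 4 to 100 kb the value in experiment 3 was 1.44 (1.03 to 1.99). Whether experiments differed in this ratio was not tested.

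At least 1 such PET was found at 143 members, and 12 had 2 or more. Ostf1-Nmrk1, with nicotinamide riboside kinase, and Scrib-Puf60, with a cell polarity gene and a splicing factor, had 3 each, from 2 experiments. Of those at Scrib-Puf60, 2 PETs of experiment 1 had ends within 2 bp of each other and would count as 1 if collapsed. PETs that joined 2 different members numbered 11, among them 2 in experiment 3 between Ache-Ufsp1 and Trip6-Slc12a9, over 21905 and 19502 bp. Contacts of single pairs, at 1 to 3 PETs, were not tested against chance ligation.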

How the data were processed

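Pol II ChIA-PET was measured in 8 liver libraries, pooled by experiment in the table the authors deposited. Each row holds the experiment, linkers, and the chromosome and position of both ends of a PET, with no library or time point. Per the submitters' processing notes, Bowtie2 and mm10 were used (roles not stated). Read filters: not given in the sources used here. Genes came from RefSeq GRCm38.p6, strands and promoters from its promoter table (both strands for 1404 of 1967 pairs).

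PET ends, without mitochondrial ones, were counted per region and divided by the autosomal mean. Intervals (95%) are exact Poisson or, for ratios and shares, exact binomial, and cover counting error only. Regions were called by a one-sided exact Poisson test with Benjamini-Hochberg adjustment under 0.05, checked on simulated counts. Experiments, the only replicates, were compared by exact sign-flip tests, so p-values measure only the spread between these pools. No comparison used day and night.

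Members, lists and rules were chosen with earlier results of these data known. Named were the 10 pairs with the highest lowest density among those called in all 3 experiments, the top 3 of each orientation and gap class, members of the gene lists and pairs with 2 or more PETs of 8 to 100 kb; a choice of these is printed, and 1 pair with a clock gene is not reported here. Of families only the leading pairs are named, and histones were found by their newer symbols. CpG classes, gene length, motifs, heavier sides and printed sequences were chosen after the densities had been seen, each with 1 setting at first. Python 3.11.15, numpy 2.4.6, pandas 2.3.3 and scipy 1.17.1 were used.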

Additional observations from a re-analysis of the deposited data

Results flagged for a closer look

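Pairs on the X chromosome lie outside the autosomal comparison and also carried PET ends. The 42 pairs there with gaps under 1 kb held 129, 123 and 113 ends in experiments 1 to 3, above the 3 ends that a count of 0 allows. Relative to the mean of the X chromosome this was 8.87 (7.41 to 10.5), 3.05 (2.53 to 3.64) and 5.31 (4.37 to 6.38), by exact Poisson interval. The autosomal members had 7.28, 2.19 and 4.09, relative to the autosomes. The difference between X and autosomes was not tested.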

How the results depend on the processing

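No paired analysis was possible because the table gives no library, so replicate numbers of the labels carry no values. Over 8 results and 141 alternative values, 0 reversed, 124 counted as the same and 17 moved. For ratios, the same meant a move smaller than the SD between experiments. That SD was wide for convergent pairs (0.768), so their values of 1.57 and 1.39 below counted as the same. For the difference with EGS only the sign had to be kept, so its fall relative to windows 100 kb away also counted as the same. Call counts and contacts had limits of their own. The ratio of members to single boundaries was 2.39 with only PETs within 8 kb and 1.39 relative to windows 100 kb away, and leaving out each experiment gave 1.74 to 2.12. Divergent pairs against single starts gave 1.79 with flanks of 2.5 kb, 2.44 with PETs within 8 kb and 1.64 relative to those windows. Convergent pairs against single ends gave 3.02 with PETs within 8 kb and 1.57 with genes over 10 kb. Relative to the windows, tandem pairs gave 1.31 and convergent pairs 1.39 (1.67, 1.07 and 1.42 in experiments 1 to 3). At CpG-rich promoters the divergent ratio was 1.19 without the densest 1%, 1.00 relative to the windows and 1.13 with a limit of 0.6. The members called in all 3 experiments, 365, became 146 with only PETs between chromosomes, 152 with only PETs within 8 kb, 179 and 161 for each linker, 178 with first reads only and 193 against single boundaries; those but the last used fewer ends. Leaving out an experiment gave 389 to 671, the highest without experiment 2. The 10 densest pairs stayed called in all experiments used under each of their 182 alternative values. They were chosen from these same ends as the densest pairs called in all 3 experiments, so this could hardly turn out otherwise. The read-1, overlap, CpG and gene-length alternatives were added after seeing the data. Other causes were not tested. Depth limits single regions: a 2 kb region needed 4 to 8 ends to be called.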
